A study of Mus musculus with 72 samples.

Results

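The mitochondrial carrier family Slc25 was followed through every tissue of the study. Its members were taken as all protein-coding genes with a symbol of the form *Slc25a* followed by a number and with a mean normalized read count above 5 in the libraries of at least 1 of 6 sets of libraries fitted together, namely gastrocnemius, the GFP experiment, lung, heart, liver and white fat. Of 47 such genes in the annotation, 45 qualified, among 24354 genes of any kind that did so and 55401 genes listed. *Slc25a41* and *Slc25a54* did not qualify, with highest means of 3.4 and 1.1. In gastrocnemius 40 members were tested, *Slc25a18* lying just inside the limit (mean 5.8) and *Slc25a2* just outside it (3.6), and *Slc25a21*, *Slc25a31*, *Slc25a43* and *Slc25a48* were also below it. The other sets tested 38 members in the GFP experiment, 45 in lung, 44 in heart, 41 in liver and 44 in white fat.

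Carriers of this family are small membrane proteins, nearly all of them in the inner mitochondrial membrane, that exchange metabolites between the cytosol and the mitochondrial matrix. They bring ADP and phosphate in and ATP out, move malate, aspartate and glutamate for the shuttle that passes NADH electrons into the matrix, import acylcarnitines for fatty acid oxidation, and deliver cofactors, nucleotides and iron. In skeletal muscle, the ADP/ATP exchange matches mitochondrial ATP supply to contraction. BMAL1 is the core transcription factor of the circadian clock and, with its partner CLOCK, binds the E-box sequence CACGTG.

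Poly(A) RNA of male mice was sequenced in 72 libraries. The gastrocnemius, a calf muscle rich in fast fibers, was collected from wild-type mice (WT), from whole-body *Bmal1* knockout mice (KO), and from KO mice injected systemically at postnatal day 5 with an AAV9 vector that carries HA-tagged *Bmal1* cDNA behind the muscle promoter CK6 (KO+AAV). At 10 weeks of age there were 6 WT, 6 KO and 7 KO+AAV libraries, and at 40 weeks 5 of each. A control experiment compared 3 KO mice given AAV9-CK6-GFP (KO+GFP) with 3 KO mice without it (KO control), in gastrocnemius at 10 weeks. Lung, heart, liver and white fat at 40 weeks had 4 KO and 4 KO+AAV libraries each and no WT library. All tissue was collected at 1 time of day, so no rhythm could be read. WT differs from KO in every tissue of the body, not in muscle alone. At 10 weeks the main experiment was sequenced at 2 sites, ICBR (3 WT, 3 KO and 4 KO+AAV libraries) and Novogene (the rest); the other gastrocnemius libraries came from Novogene and the other tissues from ICBR. Reads counted on genes ranged from 6754312 to 8515400 per library in the GFP experiment, from 9325122 to 41733282 in the other gastrocnemius libraries and from 36903079 to 50755829 in the other tissues.

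The targeted gene, *Arntl* (the symbol of *Bmal1*), was still counted in KO muscle. The counts are per gene and do not tell its exons apart, and the reason was not tested. At 10 weeks its normalized count was 402 to 634 in WT, 196 to 296 in KO and 169 to 281 in KO+AAV, so that WT stood above both other groups (difference from KO of 1.14 on the log2 scale, exact permutation test within sites, two-sided, *P* = 0.005), whereas KO+AAV and KO overlapped (-0.04, exact *P* = 0.77). At 40 weeks WT had 480 to 608 and KO+AAV 268 to 359. The library labelled KO replicate 2 had 1039, above every WT library, while the other KO libraries had 308 to 395. In that library the clock outputs *Dbp* (32.2), *Per3* (3.58) and *Nr1d2* (247) were as low as in the other KO libraries, whereas WT had at least 560.4, 268 and 1557. Where leaving it out changes a 40-week call given here, the change is named. Muscle markers were high in every gastrocnemius library. Heart KO replicate 2 held 30506 RPM (reads scaled to a common number of reads on genes) of 6 hepatocyte markers, against 8.68 to 12.8 in the other 7 heart libraries, and white fat KO replicate 2 held 31926 RPM of 4 epididymis markers, against at most 27.5 in the others, so both libraries were also left out in turn.

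The family's share of the transcriptome was highest in heart and lowest in lung by group means. Members together took 8173 to 8873 RPM in KO+AAV heart and 4777 to 6503 in WT gastrocnemius at 10 weeks, against 2275 to 2817 in KO+AAV lung. KO+AAV liver, with 4059 to 4725, overlapped KO+AAV gastrocnemius at 40 weeks, with 4412 to 5828. In RPM, divided by exon length in kilobases, *Slc25a4*, which encodes the main ADP/ATP exchanger of muscle and heart (chr8:46206797-46211284, minus strand, GRCm38), had a median of 1367 in the 34 gastrocnemius libraries of the main experiment (range 1052 to 1661) and 2050 in the 8 heart libraries (785 to 2277, the lowest being the library with hepatocyte markers). It alone accounted for 74.0% of the summed member medians in gastrocnemius and for 66.7% in heart. In liver its median was only 4.22 (1.06 to 8.29), and *Slc25a5*, the ADP/ATP exchanger of proliferating and non-muscle cells, led with 233.

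*Slc25a3* and *Slc25a11* came next in both striated muscles. In gastrocnemius *Slc25a3*, the phosphate carrier, had a median of 129 on the same scale, *Slc25a11*, the oxoglutarate-malate carrier, 108, and *Slc25a12*, the calcium-regulated aspartate-glutamate carrier of muscle and brain, 62.4. *Slc25a3* (100.2 to 183) and *Slc25a11* (73.1 to 166) overlapped in their ranges, so that their order was not clear of the spread. *Slc25a12* was the only member with its highest median in gastrocnemius. Its liver counterpart *Slc25a13* had a median of 63.2 in liver and 0.154 in gastrocnemius.

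Among other carriers, *Slc25a1* was high in liver and white fat, and *Slc25a15* and *Slc25a47* were high in liver. *Slc25a1*, which exports citrate for fatty acid synthesis, reached a median of 169 in white fat and 131 in liver but 1.84 in gastrocnemius. *Slc25a15*, the ornithine carrier of the urea cycle, had a median of 86.7 in liver and 2.65 in white fat. *Slc25a47*, a carrier known for its expression in liver, had 92.8 and 1.59. By the tissue of the highest median, the 45 members divided into 14 in liver, 13 in lung, 9 in heart, 8 in white fat and 1 in gastrocnemius. These levels describe tissues sequenced at different sites and carry no test.

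**Figure D1:**
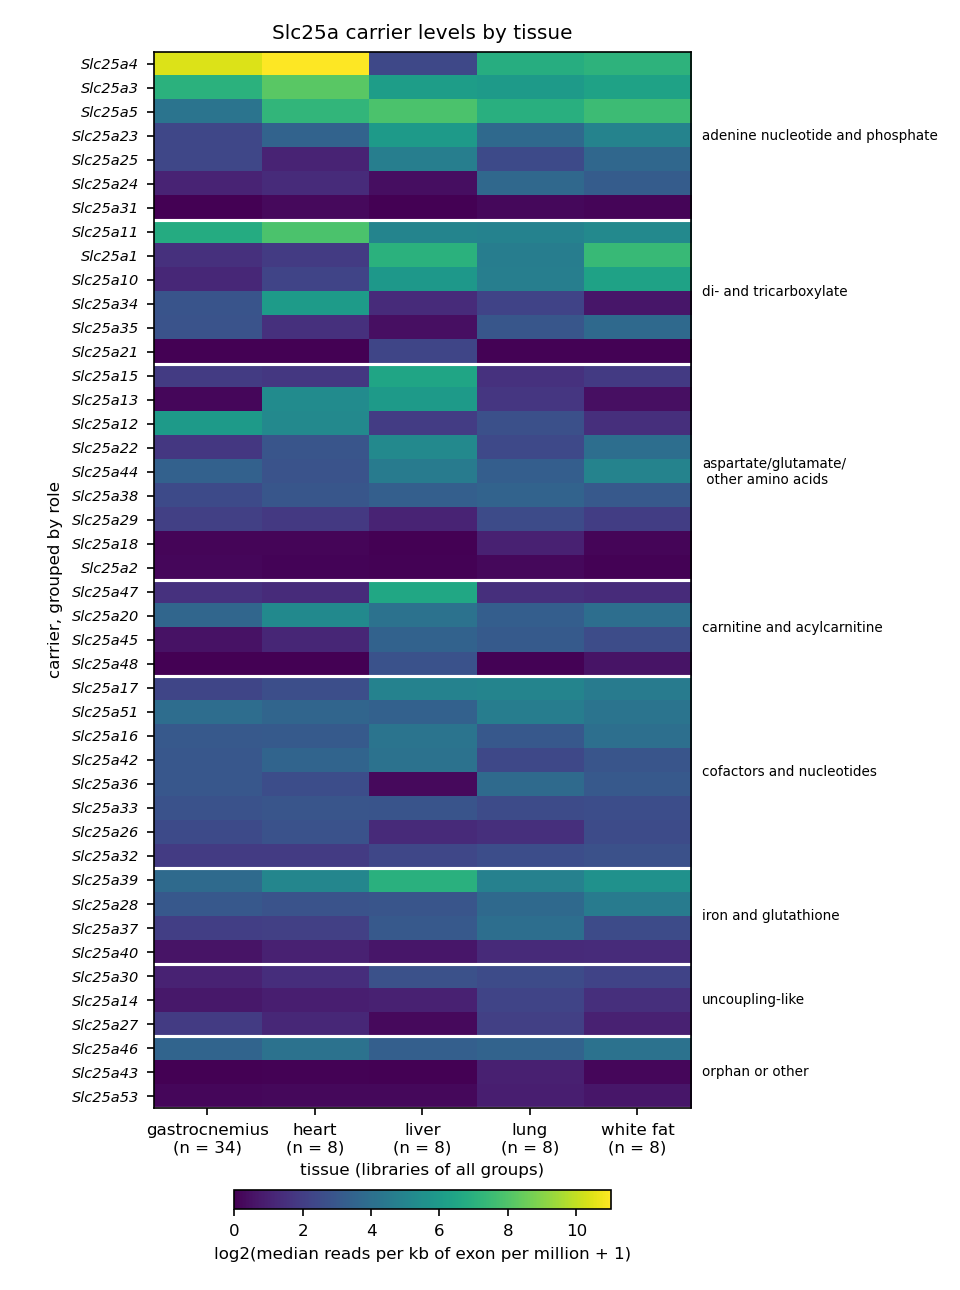
Median level of 44 of the 45 members in the 5 tissues, as RPM divided by exon length in kilobases, on a log colour scale, with members in rows grouped by role and tissues in columns. The row of *Slc25a4* is brightest in heart (2050) and gastrocnemius (1367) and dark in liver (4.22), and *Slc25a1* is high in white fat (169) and liver (131).

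WT and KO gastrocnemius were compared first, which asks what the lack of *Bmal1* does to the family. At 10 weeks 6 of 40 members passed the study's threshold of *P* under 0.01, 3 higher and 3 lower in WT, where 10.9% of the 16199 genes tested did so (5.7% higher, 5.15% lower in WT). At a Benjamini-Hochberg adjusted *P* under 0.05 the count was 5, against 8% of all genes. The median log2 fold change of the members was -0.015, beside -0.0074 over all genes. In whole muscle, fewer cells of a type and less RNA per cell cannot be told apart.

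*Slc25a30*, an uncoupling protein-like carrier (chr14:75760117-75787037, minus strand), had the largest difference. Its normalized count ranged from 209 to 747 in WT (median 361, n = 6) and from 46.1 to 89.1 in KO (median 67.0, n = 6), and the groups did not overlap. It was higher in WT by 2.53 ± 0.256 on the log2 scale (SE, limma, adjusted *P* = 2.33e-08). The 3 ICBR libraries of WT (436, 730 and 747) lay above the 3 from Novogene (209, 286 and 221), and the difference was 3.27 within ICBR and 1.79 within Novogene, past the threshold in both.

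*Slc25a37*, mitoferrin-1, which imports iron for heme and iron-sulfur clusters (chr14:69241848-69285112, minus strand), had the next smallest *P*. WT libraries held 403 to 510 (median 464) and KO libraries 238 to 292 (median 270), again with no overlap. The log2 difference was 0.78 ± 0.145 (limma, adjusted *P* = 0.000376), and it was 0.74 within ICBR and 0.83 within Novogene. Mitoferrin-1 is known from red cell precursors, and 4 erythroid markers summed to 53.4 to 177 RPM in WT and 54.0 to 82.4 in KO, which overlapped; their part in the difference was not tested. *Slc25a28*, the mitoferrin found in most tissues, had 397 to 519 in WT and 315 to 467 in KO and did not pass (log2 0.19).

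The third member higher in WT was *Slc25a25*, a calcium-regulated ATP-Mg/phosphate carrier. It varied widely, from 500.0 to 3955 in WT (median 1597) and from 253 to 1757 in KO (median 363), and the groups overlapped. The log2 difference was 1.68 ± 0.519 (limma, adjusted *P* = 0.0387). It no longer passed in 5 of its 22 other settings, among them Novogene libraries alone (1.38) and the fits without WT replicate 4, WT replicate 6 or KO replicate 1.

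The members lower in WT were cofactor and nucleotide carriers. *Slc25a42*, which brings coenzyme A into the matrix, had 487 to 737 in WT (median 552) and 660.0 to 920 in KO (median 791), with overlap of the groups. It was lower in WT by a log2 difference of -0.49 ± 0.11 (limma, adjusted *P* = 0.00326). *Slc25a36*, a pyrimidine nucleotide carrier (chr9:97074961-97111157, minus strand), had 767 to 1023 in WT (median 890.0) and 1157 to 1378 in KO (median 1248), and the groups did not overlap (log2 -0.52 ± 0.161, limma, adjusted *P* = 0.0414). *Slc25a17*, the carrier of coenzyme A, FAD and NAD in the peroxisome, had 126 to 174 in WT and 144 to 224 in KO (log2 -0.37 ± 0.119, limma, adjusted *P* = 0.0501), and within neither site did it pass the threshold.

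A second pyrimidine nucleotide carrier, *Slc25a33*, was singled out after its values were seen. Its 10-week counts were 212 to 272 in WT (median 257) and 128 to 190 in KO (median 143), with no overlap, yet it did not pass in the model of all 34 gastrocnemius libraries (log2 0.75 ± 0.415). That model shares its estimate of spread with the 40-week libraries. The library labelled KO replicate 2 at 40 weeks had a normalized count of 2131 for *Slc25a33*, where the other KO libraries at that age had 78.4 to 182. In a model of the 12 libraries of both 10-week groups alone, *Slc25a33* passed in limma with the same log2 difference.

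The carriers of ADP/ATP exchange, phosphate and the malate-aspartate shuttle did not pass at 10 weeks with every library. *Slc25a4* had 48138 to 58801 in WT and 53688 to 65150 in KO (log2 -0.18), *Slc25a3* 9697 to 14494 and 10152 to 14453 (log2 -0.11), and *Slc25a5* a log2 difference of -0.07. *Slc25a11* ranged from 2597 to 4132 in WT and from 3255 to 4944 in KO (log2 -0.33), and it passed without KO replicate 3, KO replicate 6, WT replicate 4 or WT replicate 7 (-0.37 to -0.40). *Slc25a12* had a log2 difference of -0.16. *Slc25a20*, the carnitine-acylcarnitine carrier, had 727 to 1295 in WT and 679 to 1177 in KO (log2 0.04). All of these overlapped between the groups. *Slc25a1* (log2 -0.49), *Slc25a13* (-0.43) and *Slc25a15* (0.10) were low or moderate in muscle and did not pass either. The paralogs *Slc25a4* and *Slc25a5* are similar in sequence, and *Slc25a5* has a processed pseudogene, so reads that fit more than 1 of them may have been lost or shared.

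**Figure D2:**
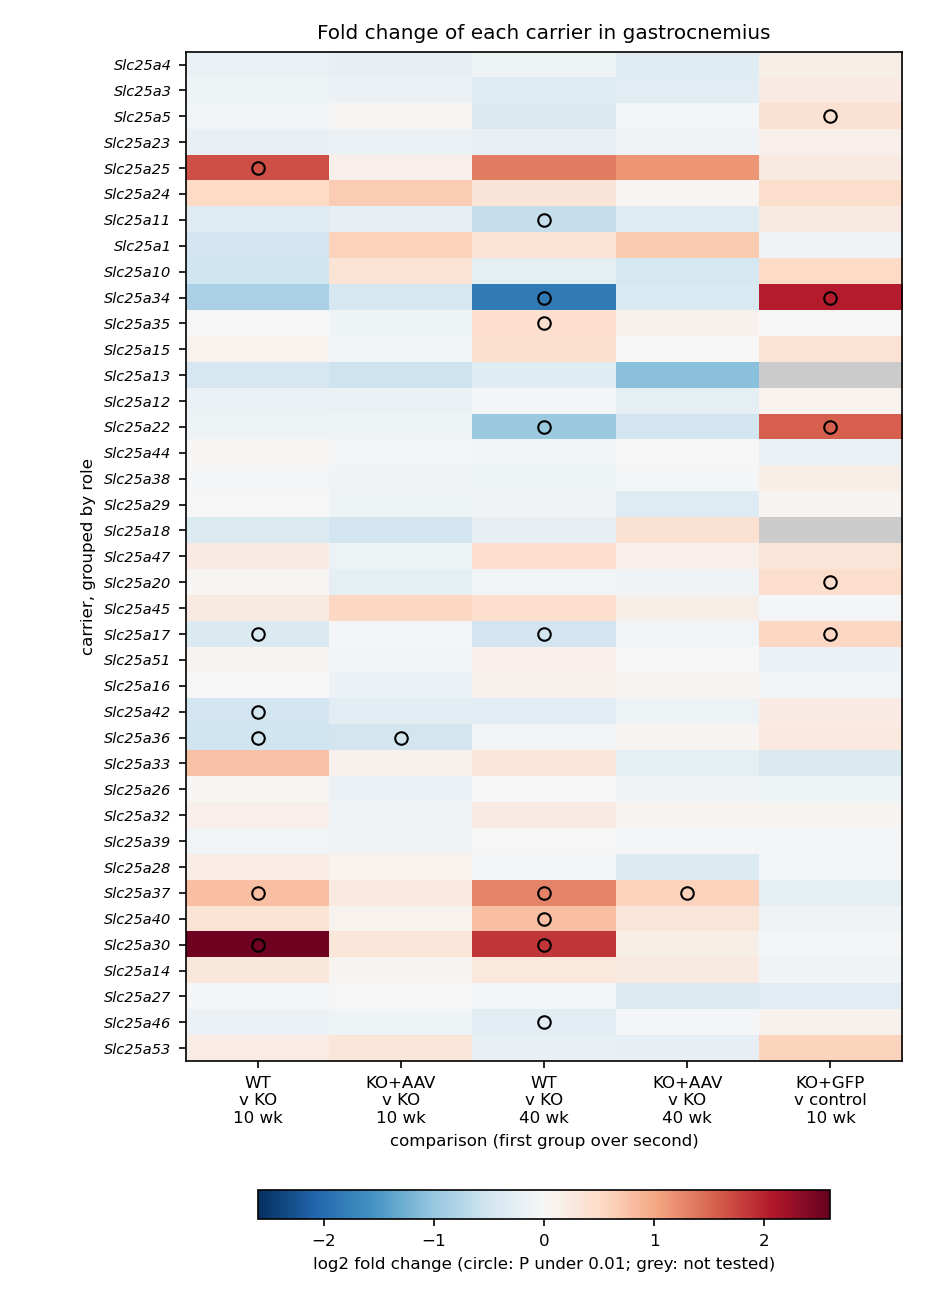
Log2 fold change of 39 of the 40 members tested in gastrocnemius, in rows grouped by role, for WT over KO and KO+AAV over KO at 10 and at 40 weeks and for KO+GFP over KO control. Circles mark *P* under 0.01 and grey cells were not tested. The deepest cells are *Slc25a30* in WT over KO (2.53 at 10 weeks and 1.86 at 40 weeks), *Slc25a34* in KO+GFP over KO control (2.04) and *Slc25a34* in WT over KO at 40 weeks (-1.84).

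Promoters are shown for 2 members with an E-box and for the member with the largest difference. In windows of 250 bases before to 50 after the start sites given by RefSeq (GRCm38.p6), the E-box CACGTG, which reads the same on both strands, occurred in 7 of 35 members with a window (20%) and in 2187 of 27025 genes with one (8.09%). The 7 were *Slc25a1*, *Slc25a13*, *Slc25a14*, *Slc25a15*, *Slc25a31*, *Slc25a33* and *Slc25a36*. Capitals mark the E-box, the sequences run 5′ to 3′ on the gene's strand, and only bases before the annotated gene are shown.
Slc25a36 (chr9:97111158-97111291, minus strand): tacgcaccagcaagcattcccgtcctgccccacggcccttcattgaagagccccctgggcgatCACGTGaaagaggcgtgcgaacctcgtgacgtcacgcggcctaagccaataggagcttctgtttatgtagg
Slc25a1 (chr16:17928220-17928469, minus strand): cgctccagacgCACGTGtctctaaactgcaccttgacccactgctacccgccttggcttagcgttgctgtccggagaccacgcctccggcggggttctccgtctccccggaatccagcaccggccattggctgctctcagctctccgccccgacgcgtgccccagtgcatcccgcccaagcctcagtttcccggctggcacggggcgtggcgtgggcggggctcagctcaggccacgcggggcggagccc
Slc25a30 (chr14:75787038-75787287, minus strand): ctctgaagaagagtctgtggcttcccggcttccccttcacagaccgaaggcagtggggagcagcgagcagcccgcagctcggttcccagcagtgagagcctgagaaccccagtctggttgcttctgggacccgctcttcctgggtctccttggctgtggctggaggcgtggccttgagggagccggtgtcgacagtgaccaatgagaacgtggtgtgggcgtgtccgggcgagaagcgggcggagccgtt
The E-box stood 187 bases before the RefSeq start of *Slc25a36* and 239 before that of *Slc25a1*. For *Slc25a36* the RefSeq start lies inside the gene as annotated, so the 134 bases shown end short of it. The letters CACGTG were not in the window of *Slc25a30*. The letters of a motif describe these windows and say nothing of binding.

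At 40 weeks 9 of the 40 members passed the threshold between WT and KO, 4 higher and 5 lower in WT, against 22.5% of all genes tested (11.5% higher and 10.9% lower). The same 9 had an adjusted *P* under 0.05, against 23.5% of all genes. The member median was -0.06, beside 0.01 over all genes, and the share of members called was that of the transcriptome. Without the library labelled KO replicate 2 the count was 10. *Slc25a33* (log2 1.16) and *Slc25a28* (0.46) then passed as higher in WT, and *Slc25a46* no longer passed.

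*Slc25a37* and *Slc25a30* again led the carriers higher in WT. *Slc25a37* counts were 580, 429, 572, 525 and 478 in WT and 279, 122, 182, 248 and 265 in KO, so all WT libraries stood above all KO libraries (log2 1.29 ± 0.159, limma, adjusted *P* = 3.92e-07). *Slc25a30* had 191, 325, 179, 210 and 181 in WT against 57.8, 68.1, 73.6, 33.9 and 63.4 in KO, also apart (log2 1.86 ± 0.28, limma, adjusted *P* = 9.81e-06). All libraries of this age came from 1 site.

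*Slc25a40* and *Slc25a35* were the other carriers higher in WT. *Slc25a40*, a mitochondrial glutathione carrier, had 105, 70.2, 99.1, 102 and 59.4 in WT and 46.8, 32.2, 62.8, 66.0 and 44.1 in KO, with 2 KO libraries above the lowest WT library (log2 0.79 ± 0.202, limma, adjusted *P* = 0.00474). *Slc25a35*, whose substrate is not settled, had 396, 467, 416, 455 and 527 in WT and 378, 287, 310, 314 and 372 in KO, with no overlap (log2 0.45 ± 0.118, limma, adjusted *P* = 0.006). The exons of *Slc25a35* share 31.3% of their bases with *Rangrf* on the other strand, and the strand setting of the counting is not given in the sources used here, so part of its reads may belong to that gene. The paired glutathione carrier *Slc25a39* did not pass.

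Lower in WT were *Slc25a11*, *Slc25a34*, *Slc25a17*, *Slc25a46* and *Slc25a22*. *Slc25a11*, the oxoglutarate-malate carrier, had 2676, 3640, 3111, 3060 and 3873 in WT and 4928, 4264, 5249, 4922 and 5716 in KO, with no overlap (log2 -0.62 ± 0.135, limma, adjusted *P* = 0.00102). *Slc25a34*, an anion carrier of unsettled substrate (chr4:141618824-141623821, minus strand), had 83.0, 294, 120, 103 and 319 in WT and 798, 757, 253, 616 and 622 in KO. Only KO replicate 3 lay within the range of WT, and the difference was the largest in this direction (log2 -1.84 ± 0.423, limma, adjusted *P* = 0.00178).

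*Slc25a17*, the peroxisomal cofactor carrier, kept the direction it had at 10 weeks and its groups no longer overlapped. WT held 144, 150.4, 134, 147 and 164 and KO 212, 211, 202, 202 and 225 (log2 -0.51 ± 0.13, limma, adjusted *P* = 0.00475). *Slc25a46*, which acts at the outer membrane in mitochondrial dynamics, and *Slc25a22*, a glutamate carrier, passed with overlapping groups (log2 -0.28 and -0.96, limma, adjusted *P* = 0.0305 and 0.0428). *Slc25a22* ranged from 156 to 261 in WT and from 125 to 781 in KO, and it failed the threshold in 11 of its 17 other settings. *Slc25a42* (log2 -0.27) and *Slc25a36* (-0.08) did not pass at 40 weeks, *Slc25a36* holding 1149, 1173, 1156, 1077 and 1208 in WT and 1156, 600.0, 1871, 1356 and 1496 in KO. Slow fiber markers summed to 90.3 to 1728 RPM in WT and to 555 to 10649 in KO at this age. Cardiomyocyte markers, some of which skeletal muscle also expresses, summed to 36.9 to 56.7 in WT and 196 to 405 in KO, with no overlap. The part of either list in these differences was not tested.

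**Figure D3:**
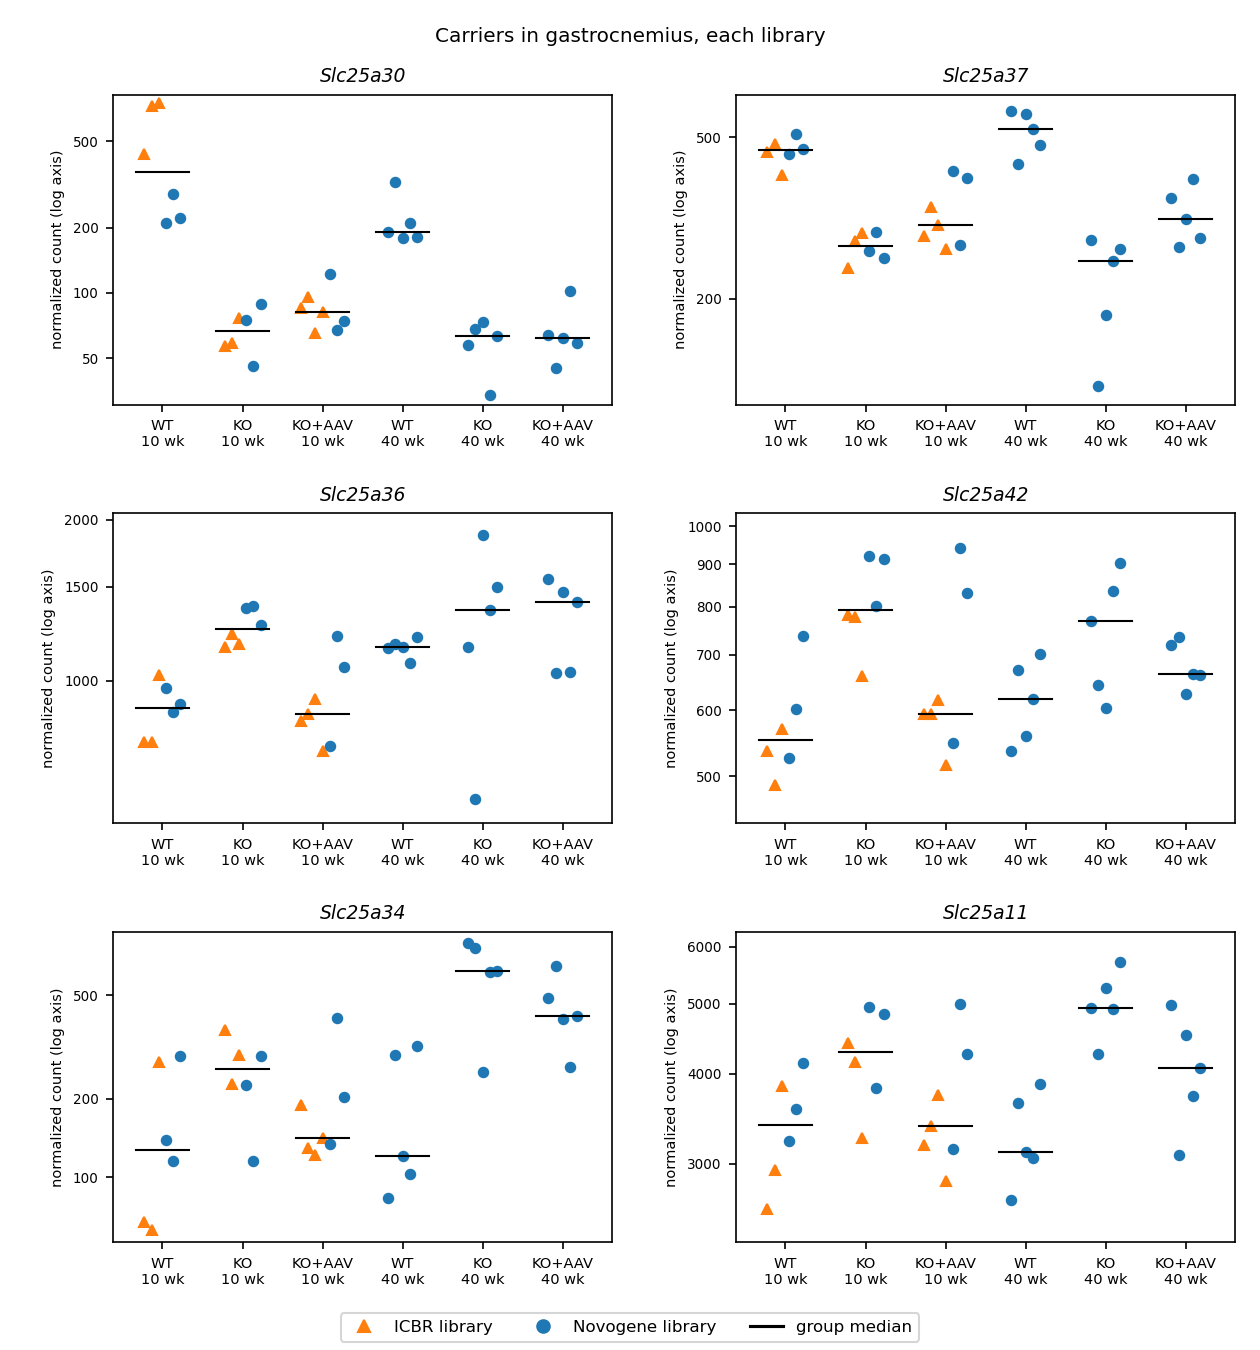
Normalized count of *Slc25a30*, *Slc25a37*, *Slc25a36*, *Slc25a42*, *Slc25a34* and *Slc25a11* in each gastrocnemius library of the main experiment, on log axes, with triangles for ICBR, circles for Novogene and lines at group medians. *Slc25a30* stood near 67.0 in KO and 81.5 in KO+AAV against 361 in WT at 10 weeks, and *Slc25a37* in KO+AAV lay between KO and WT at 40 weeks.

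KO+AAV was compared with KO to ask which carriers differed when *Bmal1* was supplied from a vector with a muscle promoter. The paper detected the tagged BMAL1 protein in gastrocnemius and not in liver or heart. At 10 weeks 1 of 40 members passed, against 2.63% of all genes tested, and none had an adjusted *P* under 0.05. The member median was -0.09, beside 0.01 over all genes. The count at an unadjusted *P* under 0.05 was 4, and edgeR and DESeq2 on the recovered reads each called 2. The member these 2 methods added was *Slc25a24*, an ATP-Mg/phosphate carrier, as higher in KO+AAV (log2 0.78 and 0.79). In limma it did not pass with every library, but it did in Novogene libraries alone (1.07) and in some fits that left out 1 library. *Slc25a24* had 209 in KO+AAV replicate 5 and 135 in replicate 4, against 44.1 to 85.8 in the other KO+AAV libraries and 42.4 to 64.3 in KO. Those libraries also had the highest macrophage marker sums of KO+AAV, 578 and 187 RPM, where KO had 25.1 to 82.5. The part of these markers was not tested. The clock outputs did respond at 10 weeks, *Per3* (log2 2.99), *Nr1d2* (1.96) and *Dbp* (1.75) being higher in KO+AAV.

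The member that passed was *Slc25a36*. In KO+AAV it had 739 to 1214 (median 865, n = 7), against 1157 to 1378 in KO and 767 to 1023 in WT, so that 6 of 7 KO+AAV libraries lay below every KO library and within or close to the WT range (log2 -0.47 ± 0.156, limma, adjusted *P* = 0.297). The call was lost in Novogene libraries alone (-0.44). It was also lost without KO+AAV replicate 4, KO+AAV replicate 5 or KO replicate 2, which each left 0 members called. Without KO replicate 3 there were 3, with *Slc25a24* and *Slc25a42* added. Within ICBR *Slc25a42* had 515 to 618 in KO+AAV and 660 to 782 in KO, and it passed there (-0.35). Within Novogene it had 547 to 942 against 800 to 919. With every library it did not pass, though it did in some fits that left out 1 library (-0.32 to -0.36). KO+AAV replicate 4 also stood apart in its whole profile, and adipocyte markers summed to 569 RPM in it, against 156 to 270 in the other KO+AAV libraries.

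*Slc25a30* and *Slc25a37*, the members with the smallest *P* between WT and KO, did not pass between KO+AAV and KO at 10 weeks. *Slc25a30* had 65.1 to 123 in KO+AAV (median 81.5), overlapping KO (log2 0.31) and below every WT library. WT exceeded KO+AAV by 2.22 ± 0.247 on the log2 scale (limma, adjusted *P* = 3.74e-07). *Slc25a37* had 265 to 413 in KO+AAV (median 304) and overlapped both other groups, the difference from KO being 0.26. Within Novogene its mean was 360.4, between KO (269) and WT (477), and WT did not pass against KO+AAV there. The comparison of WT with KO+AAV uses the same libraries as the comparisons with KO and is not independent of them. In it 6 members passed at 10 weeks (8.75% of all genes) and 4 at an adjusted *P* under 0.05 (5.15%).

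Among those 6 were 2 carriers that did not pass between WT and KO. *Slc25a1*, the citrate carrier, had 36.0 to 55.0 in WT and 56.0 to 185 in KO+AAV, with no overlap (WT lower, log2 -1.08 ± 0.314, limma, adjusted *P* = 0.037). *Slc25a10*, the dicarboxylate carrier, had 39.4 to 65.2 in WT and 65.8 to 171 in KO+AAV, narrowly apart (log2 -0.87 ± 0.209, limma, adjusted *P* = 0.00924). Neither passed in Novogene libraries alone (-0.56 and -0.64). Adipocyte markers come from a tissue that expresses both carriers far above muscle. They summed to 156 to 569 RPM in KO+AAV (median 177), 115 to 166 in WT (median 135) and 139 to 251 in KO (median 179). Cardiomyocyte markers summed to 776 to 2836 in KO+AAV and to 122 to 754 in WT, with no overlap. In KO they summed to 398 to 2392, overlapping both other groups. The part of either list was not tested.

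At 40 weeks 1 of 40 members passed between KO+AAV and KO, against 3.25% of all genes, and none had an adjusted *P* under 0.05. The count at an unadjusted *P* under 0.05 was 6, edgeR and DESeq2 each called 2, and the member median was -0.06 beside 0.02 over all genes. The member was *Slc25a37*, with 354, 268, 314, 395 and 282 in KO+AAV and 279, 122, 182, 248 and 265 in KO. Of these, 1 KO+AAV library lay below the highest KO library, and all lay below WT (429 to 580). The log2 difference was 0.60 ± 0.159 (limma, adjusted *P* = 0.106), and WT still exceeded KO+AAV by 0.68 ± 0.159 (limma, adjusted *P* = 0.00362). The call was kept in each of the fits that left out 1 library and was lost with these 2 groups fitted alone.

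*Slc25a30* remained at 63.8, 44.9, 62.1, 102 and 58.7 in KO+AAV at 40 weeks, overlapping KO (log2 0.15). *Slc25a11* took values of 4978, 3088, 4528, 3726 and 4075 and *Slc25a34* of 489, 651, 406, 266 and 418, which overlapped both KO and WT (log2 against KO of -0.31 and -0.40). Neither passed. *Slc25a17* in KO+AAV (198, 210.5, 213, 165 and 224) stood above every WT library, and WT was lower by a log2 difference of -0.44 ± 0.13 (limma, adjusted *P* = 0.0224). Between WT and KO+AAV 5 members passed (14.6% of all genes), 4 of them at an adjusted *P* under 0.05 (12.5%).

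The count for KO+AAV against KO at 40 weeks rested on single libraries. Without the library labelled KO replicate 2 it was 4, with *Slc25a33* added as higher in KO+AAV (log2 0.60) and *Slc25a22* as lower (-0.87). With every library, edgeR called *Slc25a33* in the opposite direction (-1.53). Without KO+AAV replicate 1 it was 5, the additions being *Slc25a4* (-0.38), *Slc25a3* (-0.37), *Slc25a11* (-0.39) and *Slc25a12* (-0.32), all lower in KO+AAV. With every library these 4 abundant carriers had log2 differences of -0.30, -0.28, -0.31 and -0.23 and did not pass in limma. DESeq2 with every library did call *Slc25a4*, as lower in KO+AAV (-0.30).

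Age was compared within each genotype, between mice of 40 and 10 weeks. In WT 1 member passed (2.27% of all genes), in KO 2 (12.1%) and in KO+AAV 1 (12.1%). *Slc25a10* was higher at 40 weeks in WT (log2 0.70 ± 0.243, limma, adjusted *P* = 0.393), and not with Novogene libraries alone. *Slc25a35* was lower at 40 weeks in KO (log2 -0.41 ± 0.121, limma, adjusted *P* = 0.035). Without the library labelled KO replicate 2 at 40 weeks, *Slc25a22* was also called in KO, as higher at 40 weeks (0.95). The value of *Slc25a35* rests on the correction for site, because *Slc25a35* had 79.7 to 113 in the ICBR libraries and 373 to 517 in the Novogene libraries at 10 weeks, and no ICBR library exists at 40 weeks. Without the site term its direction reversed (0.70), and within Novogene it was -0.32.

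Tests of whether a difference changed with age called 1 member for WT against KO (4.47% of all genes), *Slc25a35* (log2 0.44 ± 0.16, limma, adjusted *P* = 0.22), which fell to 0.20 and was lost in Novogene libraries alone, and 0 for KO+AAV against KO (1.08%). For the latter, 2 members had an unadjusted *P* under 0.05 in limma, and edgeR and DESeq2 each called 1, *Slc25a10*.

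The GFP experiment asks what the vector itself does in KO muscle. All 5 members that passed, of 38 tested, were higher in KO+GFP, where 8.24% of all genes passed in either direction, and 3 had an adjusted *P* under 0.05 (3.09% of all genes). The member median was 0.09, beside 0.00 over all genes.

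*Slc25a34* led with 238, 186 and 173 in KO+GFP and 60.5, 55.7 and 31.1 in KO control, with no overlap (log2 2.04 ± 0.231, limma, adjusted *P* = 0.000879). *Slc25a22*, the glutamate carrier, had 342, 182 and 297 against 104, 105 and 65.3 (log2 1.56 ± 0.233, limma, adjusted *P* = 0.0041). *Slc25a20*, the carnitine-acylcarnitine carrier, had 490, 435 and 437 against 345, 347 and 302 (log2 0.45 ± 0.1, limma, adjusted *P* = 0.0314). All 3 were separate between the groups, which adds little for members already called. The share of all genes so separated was not counted.

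*Slc25a5* had 277, 257 and 240 in KO+GFP and 201, 198 and 188 in KO control (log2 0.40 ± 0.107, limma, adjusted *P* = 0.0681). *Slc25a17* had 136, 113 and 105 against 71.5, 87.5 and 81.9 (log2 0.55 ± 0.156, limma, adjusted *P* = 0.0799). Both were also separate, and without KO+GFP replicate 1 neither passed and the count was 3. *Slc25a36* (log2 0.25) and *Slc25a37* (-0.25), the members called between KO+AAV and KO, did not pass here, nor did *Slc25a30* (-0.02).

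The 2 groups of this experiment also differed in their markers. Slow fiber markers, 8 genes, summed to 2071, 1590 and 1758 RPM in KO+GFP and to 1020, 159 and 221 in KO control. Macrophage markers summed to 85.7, 134 and 108 against 36.5, 50.3 and 34.5, and Schwann cell markers to 51.1, 67.4 and 59.8 against 155, 125 and 142. Skeletal muscle markers summed to 110860 to 116180 in KO+GFP and to 130180 to 145140 in KO control. Each of these 4 lists was apart between the groups, while the cardiomyocyte, adipocyte and erythroid lists, among others, overlapped. The part of any list in the carrier differences was not tested.

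**Figure D4:**
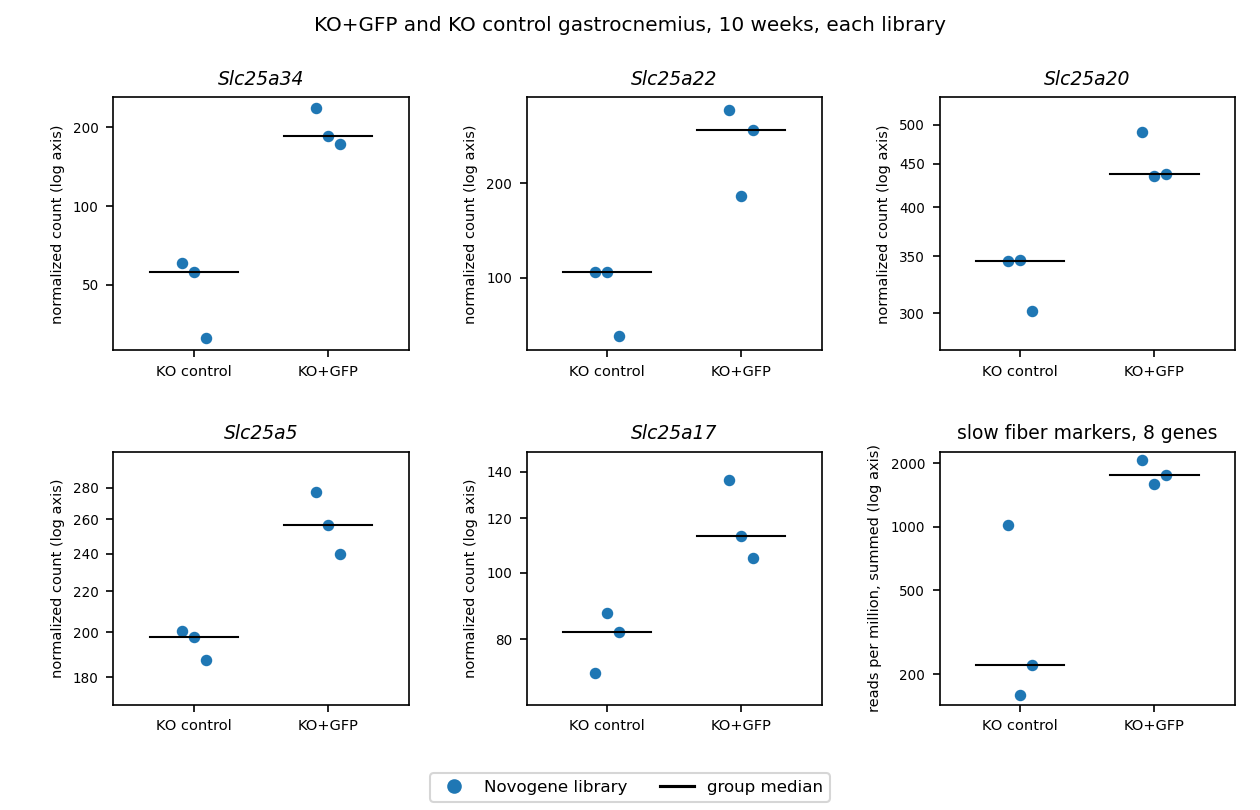
Normalized count of the 5 members called between KO+GFP and KO control gastrocnemius at 10 weeks, and the summed RPM of 8 slow fiber markers, in each library on log axes with lines at group medians. In all 6 panels the 3 KO+GFP libraries lie above the 3 KO control libraries.

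In the other tissues KO+AAV was compared with KO to look for differences outside skeletal muscle. *Arntl* itself was higher in KO+AAV liver, with 781 to 1231 against 584 to 679 in KO (log2 0.58, exact permutation test, two-sided, *P* = 0.0286, the smallest this design allows). In heart it had 627 to 821 against 484 to 653 (0.32, exact *P* = 0.0571), and in lung and white fat the groups overlapped (0.13 and -0.01). The paper found more vector copies in liver and heart than in skeletal muscle, though no tagged protein in either. The source of the *Arntl* reads in these tissues was not tested. Lung was the only one with members past the threshold in the fit of all its libraries. There 4 of 45 members passed, 3 higher and 1 lower in KO+AAV, against 3.96% of all genes, and none had an adjusted *P* under 0.05. The count at an unadjusted *P* under 0.05 was 9, and the median of the members was 0.08.

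*Slc25a4*, the muscle and heart ADP/ATP exchanger, had 18573, 13513, 24339 and 27442 in KO+AAV lung and 7228, 8627, 9317 and 9880 in KO lung, with no overlap (log2 1.22 ± 0.205, limma, adjusted *P* = 0.0936). *Slc25a3*, the phosphate carrier, had 17255, 15319, 19224 and 20144 against 13704, 14545, 14840 and 14512, also apart (log2 0.31 ± 0.0887, limma, adjusted *P* = 0.218). *Slc25a26*, which imports S-adenosylmethionine, had 464, 367, 529 and 529 against 275, 332, 383 and 301 (log2 0.54 ± 0.15, limma, adjusted *P* = 0.21). For *Slc25a26* 1 KO library lay above the lowest KO+AAV library.

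*Slc25a24*, an ATP-Mg/phosphate carrier that is not a muscle form, was lower in KO+AAV lung, with 1765, 1537, 1718 and 1611 against 2151, 1833, 1959 and 1954 (log2 -0.25 ± 0.0727, limma, adjusted *P* = 0.226). *Slc25a12* (2154, 1632, 2292 and 2566 against 1538, 1536, 1473 and 1839) had a log2 difference of 0.42 and did not pass in limma, though it was called by edgeR (0.44) and DESeq2 (0.44). Of the 4 members called, *Slc25a4* alone passed in all 14 of its other settings, and the count of members called fell to 1 without KO+AAV replicate 3, KO+AAV replicate 4 or KO replicate 1.

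Cardiomyocyte markers moved with *Slc25a4* in lung. Their 8 genes summed to 4267, 1793, 5473 and 6255 RPM in KO+AAV and to 104, 770, 828 and 1236 in KO, in the same order of libraries within each group as *Slc25a4*. Skeletal muscle markers summed to 27.2 to 122 and 5.9 to 34.5, and slow fiber markers, part of which heart also expresses, to 840 to 2431 and 299 to 738. Lower in KO+AAV, as *Slc25a24* was, were macrophage markers (2528 to 3340 against 3398 to 4404) and Schwann cell markers (484 to 546 against 599 to 709), again with no overlap. The part of these markers in the lung differences was not tested.

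**Figure D5:**
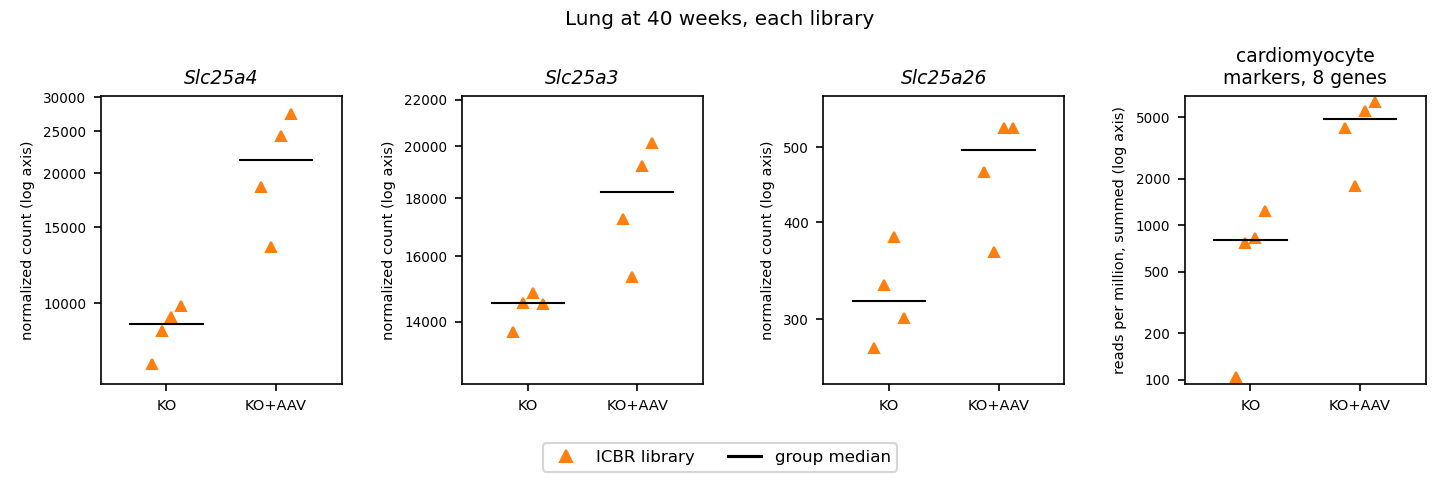
Normalized count of *Slc25a4*, *Slc25a3* and *Slc25a26*, and the summed RPM of 8 cardiomyocyte markers, in each lung library on log axes with lines at group medians. *Slc25a4* and the markers are higher in all 4 KO+AAV libraries than in the 4 KO libraries.

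Heart, liver and white fat had 0 members past the threshold in limma, where 0.0829%, 0.546% and 0.0711% of all genes passed. At an unadjusted *P* under 0.05 the counts were 1, 0 and 2, and edgeR called 0 in each. DESeq2 called 0 in heart and liver and 2 in white fat. Few genes of any kind passed in these tissues.

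In heart the largest spread came from 1 library. KO replicate 2 had normalized counts of 9130 for *Slc25a1*, 5646 for *Slc25a47* and 17600 for *Slc25a15*, carriers of liver. The other 7 libraries had 151 to 301, 141 to 248 and 488 to 638. The hepatocyte markers of KO replicate 2 stood apart in the same way. Without that library the count of members called was still 0. In white fat *Slc25a34* had 70.5, 976, 694 and 70.0 in KO+AAV and 26.0, 70.2, 96.9 and 48.5 in KO, 2 libraries carrying the difference (log2 2.13 ± 0.962, limma, adjusted *P* = 0.906). *Slc25a25* had 4278, 4788, 6007 and 4579 in KO+AAV against 3013, 2289, 3914 and 3805 in KO, with no overlap (log2 0.61). These 2 were the members that DESeq2 called, and without white fat KO replicate 2, the library with epididymis markers, limma called 0. White fat KO+AAV replicate 3, with 694 for *Slc25a34* and 6007 for *Slc25a25*, held 475.7 RPM of 3 brown adipocyte markers. The other white fat libraries held at most 7.6. The part of these markers was not tested.

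Enzymes and complexes that work with the carriers were described from lists of named genes. The 4 enzymes of the malate-aspartate shuttle, *Mdh1*, *Mdh2*, *Got1* and *Got2*, had a median log2 difference of -0.47 between WT and KO at 10 weeks and of -0.84 at 40 weeks, beside -0.0074 and 0.01 over all genes. At 10 weeks *Got1* (-0.81) and *Got2* (-0.45) passed as lower in WT, and at 40 weeks all 4 did, from *Got1* (-1.52) to *Mdh2* (-0.41). *Got1* reached 37238 in the library labelled KO replicate 2, above the 7947 to 11890 of the other KO libraries, and without that library all 4 still passed. Between KO+AAV and KO at 40 weeks *Got1* (-0.85) and *Got2* (-0.50) passed as lower in KO+AAV, and neither did without that library. Of the shuttle's carriers, *Slc25a11* passed as lower in WT at 40 weeks and *Slc25a12* did not.

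The 5 carnitine shuttle enzymes had medians of -0.40 and -0.26 between WT and KO at 10 and 40 weeks, and of -0.58 at 40 weeks without the library labelled KO replicate 2. *Acsl1* and *Cpt2* passed as lower in WT at 10 weeks (-0.67 and -0.53) and at 40 weeks (-1.09 and -0.89), and as lower in KO+AAV than in KO at 10 weeks (-0.40 and -0.36). *Acsl1* activates long-chain fatty acids and *Cpt2* releases them from carnitine in the matrix, on either side of the *Slc25a20* step, which did not pass in any of these. Of 14 ATP synthase subunits, 5 passed as lower in WT than in KO at 10 weeks and 7 at 40 weeks, with none called higher. Over all genes 5.15% and 10.9% passed as lower in WT, and the subunit medians were -0.26 and -0.37. Without the library labelled KO replicate 2 it was 8 at 40 weeks. Between KO+AAV and KO at 40 weeks 4 of the 14 passed as lower in KO+AAV (median -0.30), where 3.25% of all genes passed in either direction. Without that library it was 3. *Mpc1*, a subunit of the pyruvate carrier, which belongs to another family, was higher in WT at both ages (0.71 and 0.39).

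Members of the family with other names were few. *Ucp2*, an uncoupling protein of many cell types, had 61.0 to 107 in WT at 40 weeks and 181 to 1436 in KO, apart from each other (log2 -2.31 ± 0.422, limma, adjusted *P* = 0.000137). *Ucp3*, the muscle uncoupling protein, overlapped between WT and KO at both ages and was higher in KO+GFP than in KO control (log2 1.06 ± 0.181, limma, adjusted *P* = 0.00844). *Mtch1* and *Mtch2*, outer membrane relatives of the carriers, were lower in WT at 40 weeks (-0.37 and -0.28). *Ucp1*, the brown fat uncoupling protein, had a normalized count of at most 6.6 in any gastrocnemius library and reached 16647 in KO+AAV white fat.

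Of the 13 genes for carrier import, which build the route through the outer membrane and into the inner one, *Agk* passed as lower in WT at 10 weeks (-0.47) and *Tomm22* at 40 weeks (-0.57). Their medians were -0.08 and -0.13. Of 8 genes for heme and iron-sulfur synthesis, the pathways that use the iron *Slc25a37* imports, *Nfs1* passed as lower in WT at 10 weeks (-0.27) and at 40 weeks (-0.27), and *Alas1*, the first enzyme of heme synthesis outside red cells, at 40 weeks (-0.49). Without the library labelled KO replicate 2 at 40 weeks, 1 of the 8 passed at that age, *Nfs1* being lost. In lung the 4 malate-aspartate enzymes and 4 of 14 ATP synthase subunits passed as higher in KO+AAV, beside the cardiomyocyte markers given above. There 3.96% of all genes passed in either direction.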

How the data were processed

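Per the labels and the study's methods, poly(A) libraries were made from RNA extracted with TRIzol and RNeasy columns. The deposited values are a signal, read counts per gene (HTSeq, after HISAT2 alignment to GRCm38) that the authors divided by 1 DESeq2 size factor per library. The annotation release and strand setting are not given in the sources used here. Whole reads were recovered for 100% of values (within 0.01) in 72 libraries; on these reads edgeR called 1788 and DESeq2 2032 genes between WT and KO at 10 weeks, beside 1758 with limma. Positions and exon lengths come from GENCODE vM21 and promoters from RefSeq.

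limma 3.58.1 (R 4.3.3) was fitted to log2(normalized count + 1), a scale that understates changes of low genes, with a trend, for genes with a mean above 5: 1 model of 34 gastrocnemius libraries with 6 groups and site, 1 for the GFP experiment and 1 per other tissue. A call is *P* under 0.01, the study's rule. The Benjamini-Hochberg adjustment ran over all genes of a model. *Arntl* was tested by exact permutation. Errors after ± in tests are standard errors. Normalized counts are comparable within a model only. *P* values measure the spread between the libraries as labelled.

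Alternatives were pseudocount 0.5, no filter, a mean above 50, edgeR 4.0.16 and DESeq2 1.42.0 on recovered reads, no site term, each site or the compared groups alone, a replicate block and each library left out; leaving out 10-week libraries, and the library labelled KO replicate 2 at 40 weeks for *Arntl* and the lists, was chosen after seeing the data. Scripts were tested on simulated data. Members named are those called, with the up to 3 of smallest *P* in each direction first, those of best known role, those at the edge of the filter and carriers with other symbols. The members, lists and tests were chosen with earlier results of these data known. The values of 1 member are not reported here; it stays in the counts.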

Additional observations from a re-analysis of the deposited data

Results flagged for a closer look

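Dixon's test for a single distant library was run on 61 pairs of a named member and a group of 4 to 10 libraries, and 4 stood out, where chance alone would pick about 1 in 20. *Slc25a33* had a normalized count of 2131.1 in the library labelled KO replicate 2 at 40 weeks, where the other KO libraries had 78.4 to 182. The same library held the high *Arntl* count. The 40-week groups of *Slc25a33* were added to the pairs after these values were seen. Its flag was therefore fixed in advance and cannot be set against that rate. *Slc25a25* had 1756.9 in KO replicate 2 at 10 weeks, where the others had 253 to 602. *Slc25a30* had 324.57 in WT replicate 2 at 40 weeks, where the others had 179 to 210. *Slc25a22* had 261.03 in WT replicate 5 at 40 weeks, where the others had 156 to 180.

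The difference between WT and KO in *Slc25a35* was larger at 40 than at 10 weeks by 0.4402 on the log2 scale (interaction term in limma, adjusted *P* = 0.22). This result was past the unadjusted threshold in 4 of its 7 other settings. In Novogene libraries alone, the only site at 40 weeks, it was 0.20 and did not pass, nor did it without the site term. At 10 weeks the mean of WT was below that of KO within ICBR (84.7 and 101) and above it within Novogene (491 and 413).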

How the results depend on the processing

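Over the 42 member results called, 748 other settings were run, of which 649 kept the call, 98 lost it with the same direction and 1 reversed it, the change of *Slc25a35* with age in KO without the site term (0.70). The log2 difference in *Arntl* between WT and KO at 40 weeks became 0.70 without KO replicate 2 (0.38 with it, exact permutation *P* = 0.27), and only then passed (exact *P* = 0.00794).

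Counts of members called moved by over 1.5 times in these settings. With edgeR they were 2 for KO+AAV against KO at either age, 4 for age in KO, 0 for the WT and KO interaction and 1 for the KO+AAV and KO interaction. With DESeq2 they were 2 for KO+AAV against KO at either age and in white fat, 2 for age in KO+AAV and 1 for the KO+AAV and KO interaction. In Novogene libraries alone they were 3 for WT against KO and 1 for WT against KO+AAV at 10 weeks, 0 for age in WT, 2 for age in KO+AAV and 0 for the WT and KO interaction. In ICBR libraries alone KO+AAV against KO at 10 weeks gave 3. With the compared groups alone the counts were 10 for WT against KO at 10 weeks, 0 for KO+AAV against KO at 40 weeks, 2 for age in WT, 1 for age in KO and 2 for age in KO+AAV. Without the site term they were 4 for age in KO+AAV and 0 for the WT and KO interaction, and with no filter 2 for KO+AAV against KO at 40 weeks.

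Leaving out 1 library at a time gave 5 to 8 for WT against KO, 0 to 3 for KO+AAV against KO and 4 to 7 for WT against KO+AAV at 10 weeks. At 40 weeks it gave 7 to 10, 1 to 5 and 4 to 5. Age gave 0 to 2 in WT (0 without WT replicate 3 at 10 weeks or replicates 2, 3 or 4 at 40 weeks), 2 to 4 in KO (4 without replicates 1, 3 or 4 at 40 weeks) and 1 to 4 in KO+AAV (4 without replicate 6 at 10 weeks or replicate 4 at 40 weeks). The GFP experiment gave 3 to 6, lung 1 to 5 and liver 0 to 1. Heart and white fat stayed at 0.

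Replicate numbers did not pair the samples: in each pair of groups at least 1 same-number correlation of deviations was under 0.1, the lowest being 0.07 for WT and KO at 10 weeks and -0.49 in white fat. A replicate block gave counts of 9 for WT against KO at 10 weeks, *Slc25a1* (-0.58) and *Slc25a11* (-0.35) being among those added and *Slc25a25* (1.24) being lost, 8 at 40 weeks, 1 for KO+AAV against KO at either age, 5 and 6 for WT against KO+AAV at 10 and 40 weeks, 5 in the GFP experiment, 5 in lung, and 0 in heart, liver and white fat. Depth was lowest in the GFP experiment (from 6754312 reads on genes) and limits its low members most. The causes of these changes were not tested.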
